A study of Rattus norvegicus with 8 samples.

Results

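The genes described here are those that the deposited gene table of the rat hippocampal neuron study annotates as microRNA (miRNA) genes. The rule takes every symbol with that biotype in the authors' table of genes tested in somata and looks it up in the table of read counts. It gave 46 genes of the 28909 symbols counted. The biotype table had been filtered on low counts by the authors, and all 46 genes also passed the filter used here, under which 14309 genes had over 20 reads each in 2 or more libraries. The miRNA genes with fewer reads are therefore not among them. Of the 46 genes, 10 carry a Mir symbol, 2 a Gm symbol, and 34 only the name of a genomic clone or contig with a version number.

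Hippocampal neurons of Sprague-Dawley rats were grown on filter inserts, whose pores let axons and dendrites, but not cell bodies, reach the lower side, so that the somatic and the process compartment could be collected separately. Picrotoxin (PTX), a blocker of inhibitory GABA-A receptors, was present for 48 h from day 18 to day 20 in vitro, while control cultures received no PTX. Total RNA depleted of ribosomal RNA was sequenced in 2 libraries for each of the 4 conditions, which are control somata, PTX somata, control processes and PTX processes. The labels do not say whether the libraries of 1 condition came from separate cultures, so the p-values measure the spread between these libraries, which may be technical.

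A miRNA is made from a longer primary transcript, which is often a non-coding RNA or the intron of a host gene. The enzyme Drosha, with its partner Dgcr8, cuts a hairpin out of it in the nucleus, the hairpin is exported, and Dicer trims it to the mature miRNA. An Argonaute protein binds the mature miRNA and is guided by its seed, the bases from the second to the eighth, to messenger RNAs whose translation and stability are then lowered. In neurons, mature miRNAs are known to act in dendrites as well as in cell bodies. A library of total RNA is not built to capture mature miRNAs, which are shorter than its fragments, so reads assigned to a miRNA gene may come from primary transcripts, hairpins or RNAs that overlap them. The levels below are thus levels of RNA counted at the miRNA genes, and not of mature miRNAs.

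The mature sequences of the named genes are shown because they tell which miRNA each gene could give. RefSeq (build GRCr8) held 8 of the 46 genes by symbol, all of them with a Mir symbol, and the other 38 had no match. The 5′ to 3′ sequences of the genes described most are given here with the seed, bases 2 to 8, in capitals.
Mir22, miR-22-3p: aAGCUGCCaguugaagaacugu
Mir186, miR-186-5p: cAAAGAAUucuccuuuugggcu
Mir770, miR-770-5p: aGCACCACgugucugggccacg
Mir2985, miR-2985: uGUUAUAGuaucccaccuaccc
Mir568, miR-568: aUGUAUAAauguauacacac
Mir3597-1 and Mir3597-2, miR-9b-5p: uUCGGUUAucuagcuuuau
Among 12 mature entries of the 8 genes there were 11 distinct sequences with 11 distinct seeds. The seed that occurred in more than 1 gene was that of miR-9b-5p, which Mir3597-1 and Mir3597-2 share. Both genes lie on the strand opposite to a miR-9 gene, Mir9-1 and Mir9-2 respectively. Longer genes on the opposite strand also contain them, LOC100911992 for Mir3597-1 and Mir9-2hg for Mir3597-2. Neither longer gene was found in the count table by symbol. The reverse complement of miR-9b-5p is identical to bases 1 to 19 of miR-9a-3p, a mature product of the miR-9 genes on the opposite strand. It does not occur in their other listed product, miR-9a-5p. The sequence of miR-9a-3p is shown here with the identical stretch in capitals.
Mir9-1 and Mir9-2, miR-9a-3p: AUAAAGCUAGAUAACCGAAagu
The strand setting of the read counting is not given in the sources used here, so reads from the 2 strands at these loci could not be told apart.

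The 8 libraries held 12290890 to 18455662 counts each. Mitochondrial ribosomal RNA took 64.9% to 68.3% of the counts in process libraries and 21.1% to 24.8% in somata, which left 4702054 to 5491237 and 9517542 to 11227599 counts outside the mitochondrial genome. Levels are given as CPM, the counts scaled to library size and TMM factor. The scaling factors were 0.486 to 0.57 in processes and 1.81 to 1.93 in somata, so a direction between compartments depends on this scaling, and fewer cells of a type cannot be told apart from less RNA per cell. Markers of neurons and astrocytes were present in both compartments. The 6 astrocyte markers summed to 2600 to 3910 CPM in somata and 10500 to 13900 CPM in processes. Only 2 of the 6 were called higher in processes of control cultures, and 4 were not called. These 2 were Gfap (means of 1680 CPM in control somata and 10200 CPM in control processes) and S100b (355 and 1590). Aqp4 had 502 and 531, Aldh1l1 18.2 and 24.5, Slc1a3 916 and 623, and Gja1 207 and 159. The 7 markers of the oligodendrocyte lineage summed to 229 to 415 CPM in somata and 419 to 597 CPM in processes. The 8 neuronal markers summed to 1920 to 2290 CPM in somata and 4130 to 5520 CPM in processes, but Map2, a dendritic messenger RNA, made up 3370 to 4690 CPM of the latter. Without Map2 the other 7 markers summed to 1110 to 1330 CPM in somata and 673 to 920 CPM in processes. No microglial or endothelial marker passed the count filter, with sums of at most 1.55 and 0.466 CPM in any library. The part of these differences in the compartment results below was not tested.

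The miRNA genes together took few reads. Their summed reads ranged from 7754 to 8472 in the somata libraries, between 0.072% and 0.0856% of the counts outside the mitochondrial genome. In the process libraries they came to 10909 and 5466 reads in control cultures and 4479 and 6459 reads in PTX cultures, or 0.215%, 0.116%, 0.093% and 0.118% of these counts. The first control process library therefore stood above the other 3. A single gene, AABR07015056.1, held 5789, 1701, 1084 and 2207 of these reads in the same order. In 18 of the 46 genes every library had more than 20 reads, 17 genes passed the filter only through somata libraries and 3 only through process libraries. A gene that passed through 1 compartment had more reads there, though not always the higher level after scaling, and the counts of called genes below are a description of the genes that passed.

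The miRNA genes looked up for the study's own miRNAs of interest were hardly read. The paper named these miRNAs from predicted binding sites enriched in genes lowered by PTX. It took miRNA expression from an earlier study, and not from reads at miRNA genes in these libraries. That result was not tested here. A list of 13 miRNA symbols was chosen from the families that the study discusses, and it need not hold every member. All 13 were in the count table and none passed the filter. Mir132, an activity-regulated miRNA gene, had 10 and 3 reads in control somata, 15 and 6 in PTX somata, 0 and 1 in control processes and 0 and 3 in PTX processes. Its cluster neighbour Mir212 had 7 and 3, 9 and 15, 1 and 1, and 1 and 1 reads in the same order. Neither gene was tested at this depth. Of all symbols counted, 441 were written as miRNA symbols, of which 146 had no read in any library and 221 had 1 to 20 reads summed over all 8.

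The first comparison asked how the RNA of the miRNA genes was divided between somata and processes. In control cultures 25 of the 46 genes differed between the compartments, with adjusted p under 0.05 and an absolute log2 fold change above 1, against 19.2% of all 14309 genes tested. Of these, 15 were higher in processes, where the background was 11.6%, and 10 were lower, where it was 7.58%. The median log2 fold change was -0.04 over the 46 genes and -0.05 over all genes, with 23 of the 46 genes above 0 and 23 below. All 15 genes higher in processes were known only by a clone or contig name, while 7 of the 12 genes with a Mir or Gm symbol were lower in processes and none was higher. The division by name was made after the values were seen. Of the 15 higher genes, 12 had passed the filter in both compartments and 3 only in processes, and of the 10 lower genes, 9 had passed only in somata.

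**Figure D1:**
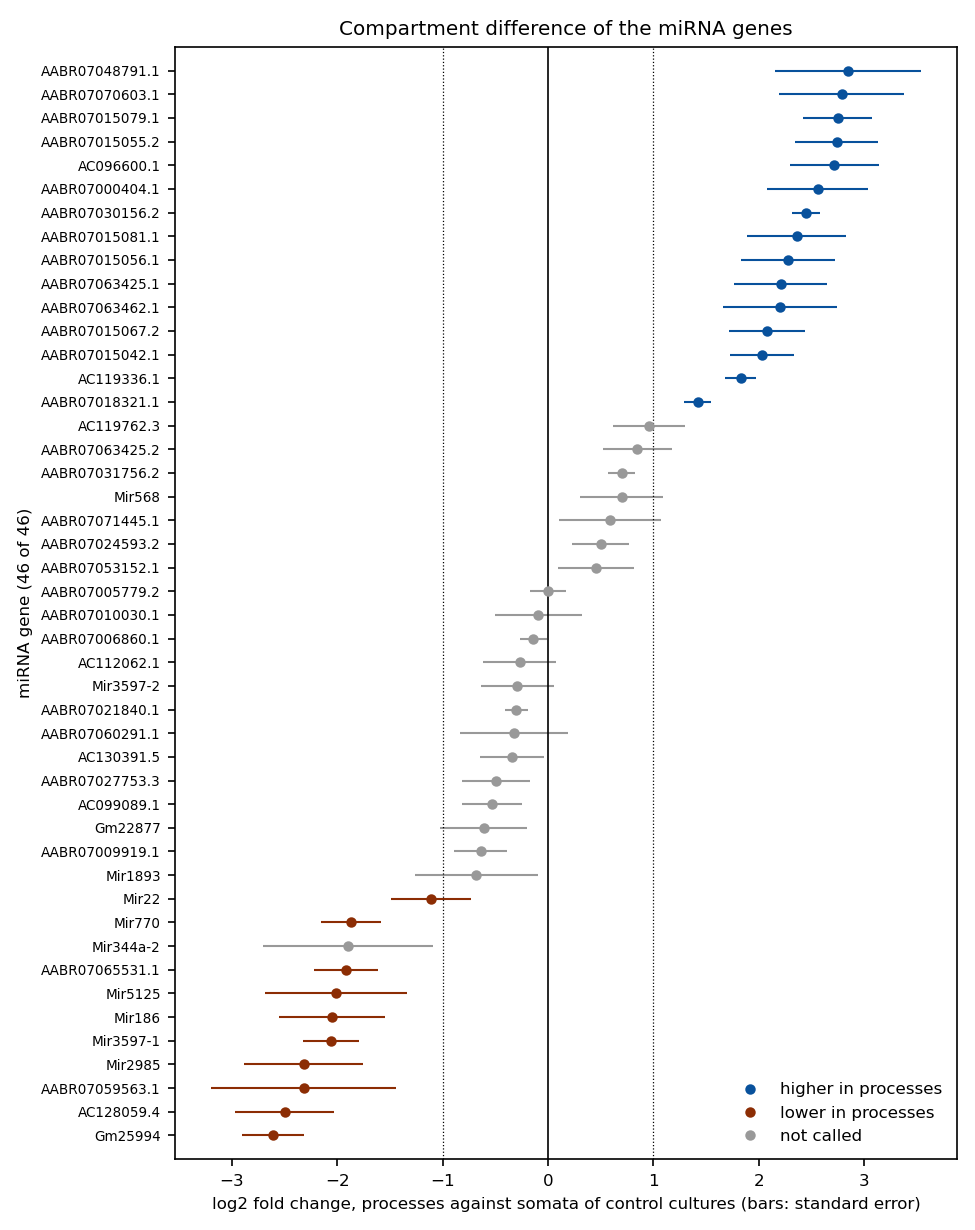
Log2 fold change of each of the 46 miRNA genes in processes against somata of control cultures, with its standard error from the fit to all 8 libraries. Blue points are the 15 genes called higher in processes, brown points the 10 called lower, grey points the rest, and dotted lines mark an absolute log2 fold change of 1. With total library size as the only scaling none of the 46 genes was called higher, and AABR07018321.1, the lowest of the blue points, had a log2 fold change of -0.38.

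The scaling decided which side many genes fell on. With TMM factors the calls split into 15 higher and 10 lower. With library size alone, which leaves the mitochondrial ribosomal RNA in the denominator, the median of all genes lay at -1.86 and 29 miRNA genes were called, 0 of them higher and 29 lower, against 84.7% of all genes called. With upper quartile scaling the median of all genes lay at -0.25 and the split was 15 higher and 11 lower. Differences between compartments are therefore stated relative to the bulk of the genes.

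Among the genes with a Mir symbol, Mir3597-1 and Mir770 were the most clearly somatic. Mir3597-1 had 105, 119, 146 and 122 reads in the somata libraries (control, then PTX) and 10, 9, 7 and 8 in the process libraries. Control somata had 4.56 ± 0.14 CPM and control processes 1.09 ± 0.0411 CPM (SD, n = 2), a log2 fold change of -2.06 (SE 0.264, adjusted p = 0.000109). Each process library lay below each somata library. Mir770, which lies within the maternally expressed non-coding gene Meg3 on the same strand, had 98, 98, 94 and 70 reads in somata and 10, 9, 8 and 9 in processes. Its fitted level was 3.66 times as high in control somata as in control processes, where it was 1.09 ± 0.0411 CPM in control processes (SD, n = 2), and the log2 fold change was -1.87 (SE 0.288, adjusted p = 0.000379). Meg3 was not found in the count table by that symbol, so the host's own level was not analysed here.

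Mir3597-2 shares the mature sequence and the seed of Mir3597-1 but was divided differently. It had 60, 60, 68 and 49 reads in somata and 13, 22, 15 and 28 in processes, and its levels of 2.45 ± 0.141 CPM in control somata and 2.02 ± 0.802 CPM in control processes overlapped. The log2 fold change was -0.29 (SE 0.345, adjusted p = 0.52). In PTX cultures it was 0.02 (SE 0.334) for Mir3597-2 and -2.68 (SE 0.273, adjusted p = 2.01e-05) for Mir3597-1. The difference between the 2 genes was not tested.

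Mir186 and Mir2985 lie inside protein-coding genes and were read at low levels. Mir186 had 33, 38, 44 and 28 reads in somata and 4, 2, 2 and 4 in processes. In control cultures the log2 fold change was -2.05 (SE 0.507, adjusted p = 0.00695). Its host on the same strand is Zranb2, which codes for a zinc finger splicing protein. Zranb2 had 101 and 98.0 CPM in control somata and 75.7 and 112 CPM in control processes, so its groups overlapped, and its log2 fold change was -0.08 (SE 0.162, adjusted p = 0.695), or 0.17 without the first control process library. The difference between Mir186 and its host was -1.97 on the log2 scale in control cultures and -2.12 in PTX cultures. That difference was not tested.

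Mir2985 lies within Gria2, which codes for a subunit of the AMPA receptor for glutamate, though their relative strand was not given. It had 40, 46, 57 and 38 reads in somata and 1, 5, 4 and 2 in processes. The log2 fold change was -2.32 (SE 0.564, adjusted p = 0.00629). Gria2 itself was lower in processes too, at 490 and 459 CPM in control somata and 198 and 226 CPM in control processes (log2 fold change -1.16, SE 0.115, adjusted p = 1.66e-05). The calls of Mir186 and Mir2985 each rested on 1 control process library. Without the second such library Mir186 had an adjusted p of 0.0574 at a log2 fold change of -1.68, and without the first Mir2985 had 0.0582 at -1.57.

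Mir568 lies within Zbtb20, which codes for a transcription repressor of hippocampal development, though their relative strand was not given. It was the only gene with a Mir symbol that was called higher in processes. It had 51, 38, 48 and 32 reads in somata and 27, 25, 22 and 57 in processes. The levels were 2.17 and 1.49 CPM in control somata, 3.01 and 2.94 in control processes, 1.73 and 1.35 in PTX somata, and 2.53 and 5.73 in PTX processes. Every process library lay above every somata library. The log2 fold change was 0.70 (SE 0.393, adjusted p = 0.162) in control cultures and 1.43 (SE 0.375, adjusted p = 0.00901) in PTX cultures, although with library size scaling these values were -1.10 and -0.38. Without the second PTX process library, which held the 57 reads, it was 0.70 (adjusted p = 0.2). Zbtb20 had log2 fold changes of 0.52 (adjusted p = 0.00893) and 0.77 (adjusted p = 0.00087) in control and PTX cultures, below the fold required for a call, and these were -1.29 and -1.05 with library size scaling.

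Mir22, an abundant miRNA in many tissues, was lower in processes by a smaller margin. It had 52, 39, 86 and 75 reads in somata and 9, 6, 9 and 12 in processes. Its log2 fold change was -1.11 (SE 0.379, adjusted p = 0.0326) in control cultures and -1.47 (SE 0.336, adjusted p = 0.00418) in PTX cultures. The call in control cultures was lost without each of several libraries, with adjusted p of 0.169 and log2 fold change of -0.83 without the first control somata library, and 0.167 and -0.89 without the second control process library. It was also lost without the first control process library (0.0618) and without either PTX somata library (0.0507 each), and with DESeq2 (0.113).

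The other genes lower in processes had no matched sequence. Gm25994 had 140, 152, 136 and 135 reads in somata and 11, 6, 4 and 6 in processes (log2 fold change -2.61, SE 0.297, adjusted p = 4.68e-05). This was the lowest value among the 46 genes in control cultures. AC128059.4 followed with 115, 108, 175 and 100 reads in somata and 11, 3, 8 and 3 in processes (-2.50, SE 0.469, adjusted p = 0.00141). AABR07065531.1 had 270, 248, 318 and 188 reads in somata and 34, 15, 18 and 23 in processes (-1.92, SE 0.304, adjusted p = 0.000464). For all 3 genes the somata and process libraries did not overlap.

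Mir5125 and AABR07059563.1 were called in control cultures on very few reads. Mir5125 had 17, 18, 26 and 29 reads in somata and 1, 2, 3 and 6 in processes (log2 fold change -2.01, SE 0.672, adjusted p = 0.03). AABR07059563.1 had 31, 12, 25 and 15 against 2, 1, 5 and 2 reads, with a log2 fold change of -2.32 (SE 0.88, adjusted p = 0.0498). Neither call held with DESeq2, where the adjusted p was 0.127 and 0.0887. Without 1 control library the adjusted p of Mir5125 was 0.0756 and 0.0656 for the 2 somata libraries and 0.16 and 0.0625 for the 2 process libraries. That of AABR07059563.1 was 0.253 without the first control somata library, 0.129 and 0.208 without the first and second control process library, 0.0571 and 0.0557 without a PTX somata library, and 0.0509 and 0.0505 without a PTX process library.

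Mir344a-2 and Mir1893 had few reads in every library and were not called. Mir344a-2 had 23, 20, 37 and 23 reads in somata and 0, 4, 3 and 8 in processes, and Mir1893 had 20, 16, 22 and 22 against 6, 2, 5 and 10. Their log2 fold changes in control cultures were -1.90 (SE 0.809, adjusted p = 0.0745) and -0.68 (SE 0.583, adjusted p = 0.359).

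**Figure D2:**
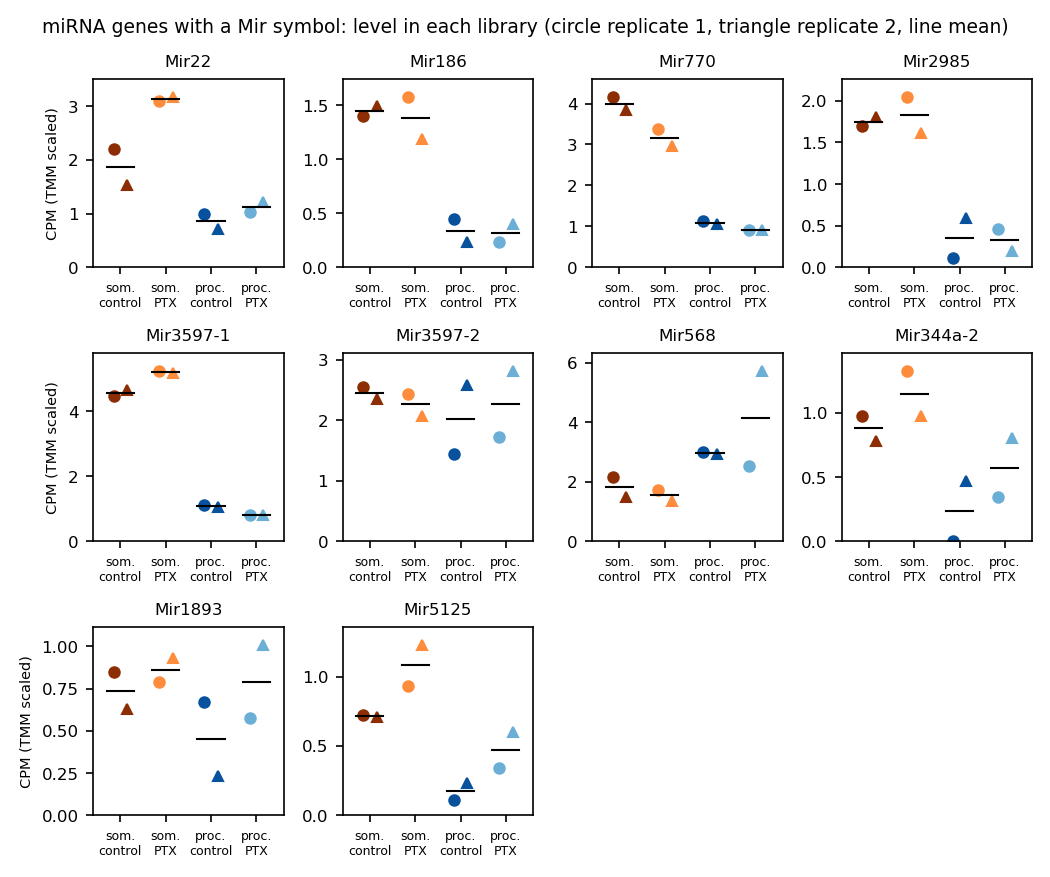
Level of each of the 10 genes with a Mir symbol in every library, in CPM after TMM scaling, with somata (som.) in brown and orange and processes (proc.) in blue, and a separate axis from 0 for each gene. Mir770 and Mir3597-1 show process libraries below 1.2 CPM against somata libraries of 2.96 to 5.25 CPM. The 2 compartments overlap for Mir3597-2, Mir1893 and Mir344a-2. In Mir344a-2 a PTX process library had 0.804 CPM and a control somata library 0.783 CPM. The process libraries lie above the somata libraries for Mir568. With library size scaling, however, the log2 fold change of Mir568 was -1.10 in control and -0.38 in PTX cultures.

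The clone-named genes higher in processes included 4 of the 5 miRNA genes with the highest mean level. AABR07030156.2 gave the clearest difference. It had 13.6, 16.6, 14.3 and 16.2 CPM in the somata libraries and 80.6, 85.1, 87.7 and 76.6 CPM in the process libraries. In control cultures the mean level of somata was 15.1 ± 2.12 CPM and that of processes 82.9 ± 3.2 CPM (SD, n = 2), and the log2 fold change was 2.45 (SE 0.136, adjusted p = 7.4e-07). In PTX cultures the log2 fold change was 2.43 (SE 0.135, adjusted p = 6.87e-07). With library size scaling these values were 0.64 and 0.60, still above 0.

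AC119336.1 and AABR07018321.1 had the same ordering of libraries. AC119336.1 had 6.46, 6.93, 5.25 and 6.05 CPM in somata and 25.4, 22.3, 25.5 and 28.6 CPM in processes. In control cultures the log2 fold change was 1.83 (SE 0.147, adjusted p = 4.18e-06), or 0.02 with library size scaling. AABR07018321.1 had 26.0, 24.9, 27.0 and 29.2 CPM in somata and 63.0, 73.5, 66.0 and 77.2 CPM in processes. Its log2 fold change of 1.42 (adjusted p = 7.61e-06) was -0.38 with library size scaling. In all 3 genes the 2 libraries of each condition lay close together, and every process library was above every somata library.

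AABR07015056.1 was the miRNA gene with the highest mean level, and its process libraries disagreed. It had 91.3, 82.2, 55.2 and 80.3 CPM in somata, 646 and 200 CPM in control processes, and 124 and 222 CPM in PTX processes. The first control process library, with 5789 reads, stood 3.23 times as high as the second, with 1701. The log2 fold change was 2.28 (SE 0.447, adjusted p = 0.00182) in control cultures and 1.36 (SE 0.439, adjusted p = 0.0247) in PTX cultures, where it was -0.45 with library size scaling. In PTX cultures the adjusted p was 0.0706 with DESeq2, 0.117 without the first PTX somata library and 0.199, at a log2 fold change of 0.88, without the second PTX process library.

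The same library stood apart in a set of genes, most of them clone-named. In 13 of the 46 miRNA genes the first control process library was more than 2 times as high as the second, against 2.99% of all tested genes. The second was more than 2 times as high as the first in 4 miRNA genes, against 2.17% of all tested genes. Some of these ratios rest on few reads, such as 6 and 2 in Mir1893, and 11 and 3 in AC128059.4. In the other direction Mir344a-2 had 0 and 4 reads, Mir2985 1 and 5, and Mir5125 1 and 2. The background of all tested genes was not matched in depth. The first library was more than 2 times as high as the second in 1 miRNA gene in control somata, in 0 in PTX somata and in 4 in PTX processes, against 1.39%, 1.09% and 2.98% of all tested genes. The second was more than 2 times as high as the first in 0, 3 and 6 miRNA genes in the same order, against 0.538%, 0.517% and 2.69% of all tested genes. The PTX process libraries thus also differed in several of the miRNA genes. In AABR07015081.1 the 2 control process libraries had 85.8 and 25.6 CPM, and the PTX process libraries 14.4 and 32.1. In AABR07015079.1 they had 49.0 and 23.8 CPM, with 11.7 and 16.6 in PTX processes, and in AABR07015067.2 17.1 and 7.05 CPM, with 3.10 and 4.73. AABR07015042.1 went the other way, with 12.9 and 28.8 CPM in control and 9.53 and 9.95 in PTX processes. AABR07063425.1, AABR07063462.1, AABR07048791.1 and AABR07000404.1 were 3.26, 4.06, 3.8 and 2.69 times as high in the first library as in the second. AABR07015057.1, which is not annotated as a miRNA gene but has a neighbouring contig name, had 1210 and 646 CPM in control processes, 480 and 490 in PTX processes and 31.9 to 43.2 in somata. Whether these genes share reads with other copies in the genome was not tested.

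Nevertheless, these genes were higher in processes in control cultures with or without the first library in most cases. The log2 fold changes were 2.75 (SE 0.326, adjusted p = 6.17e-05) for AABR07015079.1, 2.36 (SE 0.466, adjusted p = 0.00191) for AABR07015081.1, 2.08 (SE 0.362, adjusted p = 0.000877) for AABR07015067.2 and 2.03 (SE 0.305, adjusted p = 0.000329) for AABR07015042.1. AABR07000404.1 had 2.56 and AABR07063425.1 had 2.21. Of the 15 genes called higher, 13 were called without each library in turn, and the other two were AABR07063462.1 (2.20, SE 0.541) and AABR07048791.1 (2.85, SE 0.696). Without the first control process library these had log2 fold changes of 0.85 (adjusted p = 0.214) and 1.58 (adjusted p = 0.176).

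A few genes had hardly any reads in somata, and 3 of them, AC096600.1, AABR07015055.2 and AABR07048791.1, passed the filter only through process libraries. AC096600.1 had 13, 22, 17 and 19 reads in somata and 59, 24, 45 and 46 in processes, a log2 fold change of 2.72 (SE 0.423, adjusted p = 0.000412). AABR07015055.2 had 8, 11, 10 and 8 against 24, 22, 11 and 20 reads (2.74, SE 0.398, adjusted p = 0.000259), and AABR07048791.1 had 10, 9, 4 and 7 against 40, 10, 5 and 23. AABR07070603.1, with 50, 47, 16 and 32 reads in somata and 134, 107, 133 and 24 in processes, had one PTX process library at 2.41 CPM beside the other at 15.3. Its log2 fold change was 2.79 (SE 0.594, adjusted p = 0.00302) in control cultures.

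The other 16 clone-named genes were not called in control cultures, with log2 fold changes from -0.64 for AABR07009919.1 to 0.96 for AC119762.3, the latter -0.86 with library size scaling. Some were read well in both compartments. AABR07006860.1 had 18.5, 19.2, 18.4 and 18.9 CPM in somata and 15.9, 18.3, 15.2 and 16.9 CPM in processes, a narrow range over all 8 libraries, and a log2 fold change of -0.14 (SE 0.13, adjusted p = 0.408). AABR07031756.2 had 13.6, 15.1, 13.0 and 14.8 CPM in somata and 22.6, 24.1, 22.4 and 23.8 CPM in processes. The libraries of the 2 compartments did not overlap, but the log2 fold change of 0.70 (SE 0.131, adjusted p = 0.00137) was below the fold required, and was -1.11 with library size scaling. AABR07021840.1 had 46.8, 44.7, 46.7 and 43.7 CPM in somata and 35.0, 39.3, 43.1 and 41.8 CPM in processes, with -0.30 (SE 0.11, adjusted p = 0.0442), likewise below it. AABR07006860.1 and AABR07031756.2 were chosen after their values were seen. Gm22877, with a Gm symbol, had 26, 30, 21 and 19 reads in somata and 6, 7, 5 and 4 in processes and was not called (-0.61, SE 0.415, adjusted p = 0.247).

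**Figure D3:**
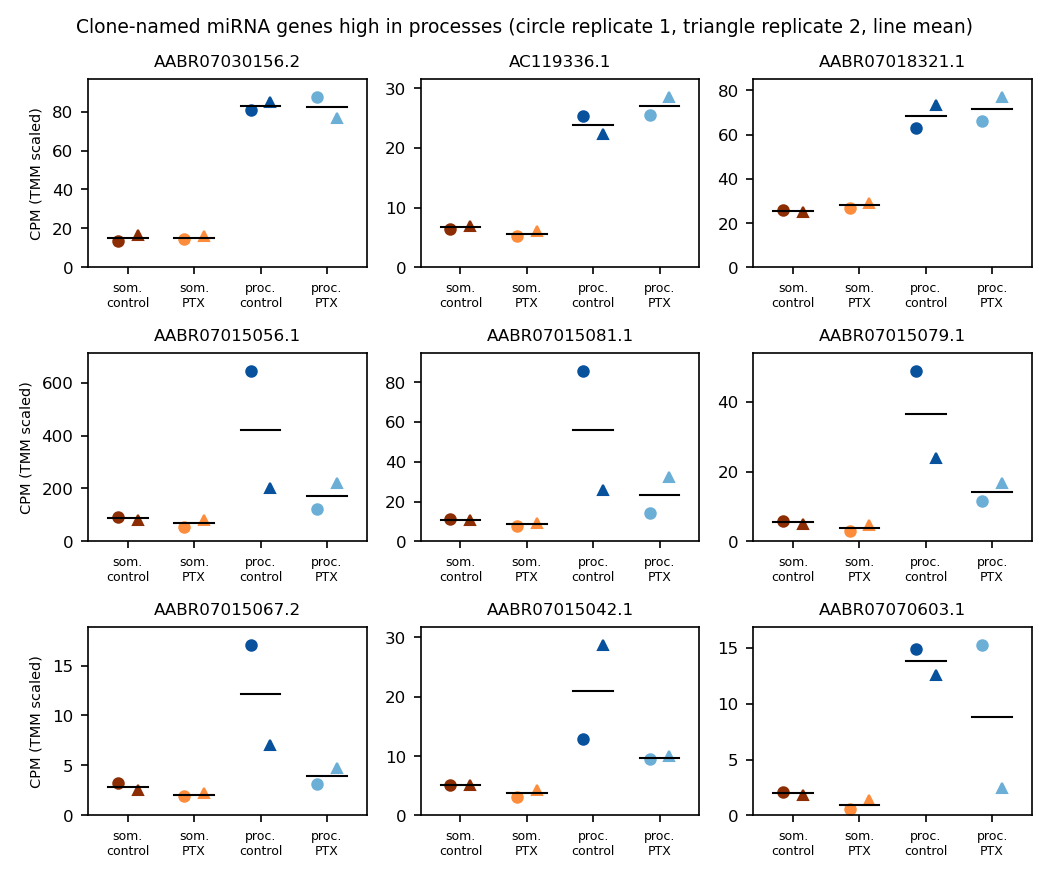
Level in every library, in CPM after TMM scaling, of 9 clone-named miRNA genes that were called higher in processes of control cultures, with an axis from 0 for each gene. The 2 libraries of each condition lie close together in the top row, whereas AABR07015056.1, AABR07015081.1, AABR07015079.1 and AABR07015067.2 have the first control process library (dark blue circle) more than 2 times as high as the second. With library size scaling the fold change of AABR07018321.1 was -0.38 in control cultures, and that of AABR07018321.1, AABR07015056.1, AABR07015081.1 and AABR07015042.1 in PTX cultures was -0.47, -0.45, -0.35 and -0.44.

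The PTX cultures gave the compartment comparison a second time in libraries of their own, which the replicate numbers pair with the control libraries. There 22 of the 46 miRNA genes were called, against 21% of all genes, with 14 higher in processes (background 11.4%) and 8 lower (background 9.67%). The median log2 fold change was 0.33 over the 46 genes and -0.05 over all genes. Of the 15 genes higher in processes in control cultures, 13 were also called higher in PTX cultures, and of the 10 lower genes, 8 were also called lower. Among all genes, 83.6% of the higher and 71.4% of the lower calls of control cultures were called in PTX cultures as well, against 86.7% and 80% of those of the miRNA genes, and the difference was not tested. The genes called in control cultures alone were AABR07015067.2, AABR07063462.1, Mir5125 and AABR07059563.1, and the gene called in PTX cultures alone was Mir568. The difference between the 2 kinds of culture was not significant for any of these genes, as the interaction below shows.

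In PTX cultures the lower calls held without each library in turn, while 7 of the 14 higher calls did not. Without the second PTX process library the adjusted p was 0.0849 for AABR07000404.1 (main value 1.93, adjusted p = 0.0112), 0.337 for AABR07015081.1 (1.46, adjusted p = 0.0285), 0.383 for AABR07048791.1 (2.74, adjusted p = 0.0184) and 0.315 for AABR07063425.1 (main adjusted p = 0.042). For the same 4 genes it was 0.067, 0.1, 0.0873 and 0.133 without the first PTX somata library. AABR07063425.1 also had 0.0632 without the second. AABR07070603.1 had a log2 fold change of 3.19 (SE 0.673, adjusted p = 0.00265), which was 1.35 (adjusted p = 0.05) without the first PTX process library. The 7 higher calls that held included AABR07030156.2, AC119336.1 (2.26, SE 0.147, adjusted p = 1.19e-06) and AC096600.1 (2.79, SE 0.417, adjusted p = 0.000299).

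The second comparison asked whether 48 h of PTX changed the RNA of the miRNA genes in somata. None of the 46 genes was called with edgeR's quasi-likelihood test, against 3.59% of all genes (2.09% higher and 1.5% lower). The lowest adjusted p was 0.184, 1 gene had an unadjusted p under 0.05, against 15.6% of all genes, and edgeR's likelihood ratio test and DESeq2 also called 0. The median log2 fold change was -0.13 for the 46 genes and -0.01 for all genes, with values from -1.06 to 0.75. The highest value and the lowest p both belonged to Mir22, which had 2.21 and 1.53 CPM in control somata and 3.09 and 3.18 CPM in PTX somata. Both PTX libraries lay above both control libraries. The log2 fold change of 0.75 (SE 0.266) had an adjusted p of 0.184, and of 0.0339 when the replicate block was added to the fit. AABR07021840.1, among the 5 miRNA genes with the highest mean level, had 46.8 and 44.7 CPM in control somata and 46.7 and 43.7 CPM in PTX somata, a log2 fold change of -0.02 (SE 0.105, adjusted p = 0.974).

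In processes 2 of the 46 miRNA genes fell with PTX and none rose with edgeR's quasi-likelihood test. The background was 3.74% of all genes in either direction, with 1.64% higher and 2.1% lower. With edgeR's likelihood ratio test 5 miRNA genes were called and with DESeq2 3, all lower and including these 2. The background was then 6.63% and 4.58% of all genes. AABR07015042.1 was called by both, with adjusted p of 0.0178 (likelihood ratio test) and 0.0173 (DESeq2). The 2 genes called in the main fit have neighbouring contig names. AABR07015079.1 fell from 36.4 ± 17.8 to 14.2 ± 3.45 CPM (SD, n = 2), a log2 fold change of -1.36 (SE 0.32, adjusted p = 0.0433). AABR07015067.2 fell from 12.1 ± 7.08 to 3.91 ± 1.15 CPM, a log2 fold change of -1.61 (SE 0.388, adjusted p = 0.047). In both genes the control and PTX process libraries did not overlap, and the first control library was the highest. Without that library the log2 fold changes were -0.75 (adjusted p = 0.321) and -0.84 (adjusted p = 0.345). Without the first PTX process library the adjusted p was 0.227 and 0.231, without the second 0.11 and 0.118, and without the first or the second control somata library 0.0529 and 0.0533 for AABR07015079.1 and 0.0574 and 0.0578 for AABR07015067.2.

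An unadjusted p under 0.05 was reached in processes by 9 miRNA genes, 8 of them with lower values in PTX cultures. Among all genes 16.6% reached it in either direction, so the total of 9 is near the background. The share of all genes that reached it with lower values was not counted, so the number 8 is not read as a result. Apart from the 2 called genes, those with lower values were AABR07015042.1 (log2 fold change -1.09, adjusted p = 0.0899), AABR07015056.1 (-1.29, 0.155), AABR07015081.1 (-1.25, 0.196), AABR07063425.1 (-1.21, 0.201), AABR07063425.2 (-1.06, 0.144) and AABR07063462.1 (-1.40, 0.242). The exception was AABR07005779.2, with 6.13 and 7.16 CPM in control and 9.30 and 9.65 CPM in PTX processes (0.51, 0.177). With the replicate block 8 miRNA genes were called, namely the 2 called genes and the 6 just listed with lower values, all of them lower, while the calls among all genes rose to 11.2%. The values depended on single libraries. Without the second control process library AABR07015056.1 and AABR07015081.1 had log2 fold changes of -1.90 and -1.87. AABR07063425.1, AABR07063425.2 and AABR07063462.1 then had -1.82, -1.54 and -2.07. Without the first control process library AABR07015042.1 had -1.56, whereas AABR07015079.1 and AABR07015067.2 had only -0.75 and -0.84.

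**Figure D4:**
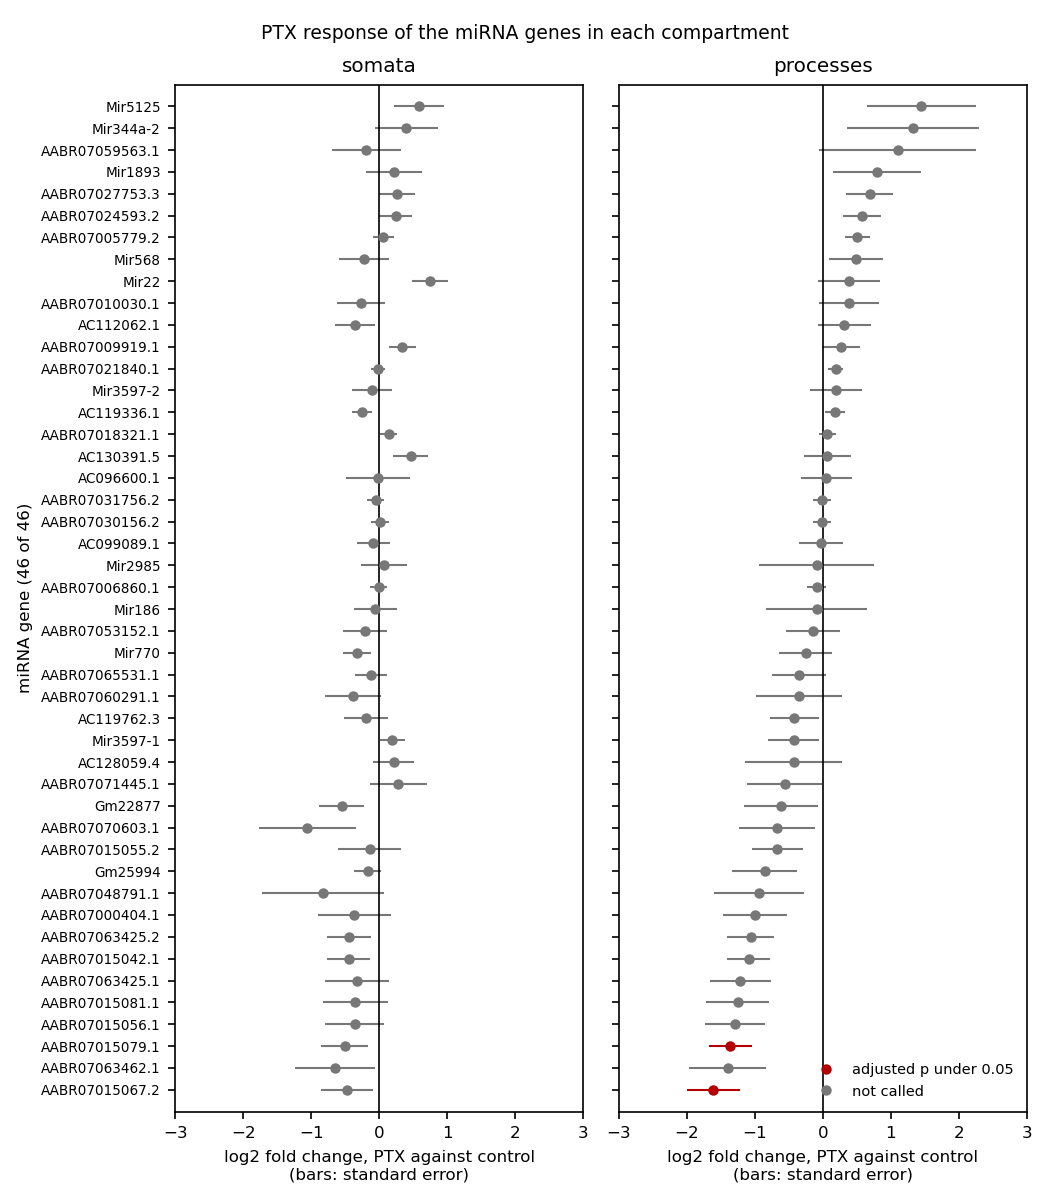
Log2 fold change with PTX of each of the 46 miRNA genes in somata (left) and in processes (right), with its standard error, in the order of the values in processes. No gene is called in somata, and the 2 called genes in processes, AABR07015079.1 and AABR07015067.2 (red), lie among the lowest values, beside other clone-named genes that did not pass the test.

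The interaction, or how far the log2 effect of PTX in processes exceeded that in somata, was not significant for any of the 46 genes with edgeR's quasi-likelihood test, and 0 had an unadjusted p under 0.05, against 4% of all genes. The background of the adjusted test was 0% of all genes, and edgeR's likelihood ratio test and DESeq2 also called 0 of the 46. For the 2 genes that fell in processes it was -1.15 (SE 0.549, adjusted p = 1) for AABR07015067.2 and -0.85 (SE 0.475, adjusted p = 1) for AABR07015079.1. A difference between the compartments in the PTX response was therefore not shown for either gene.

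The genes that make and use miRNAs were looked at beside the miRNA genes. Of a list of 30 such genes, 26 were tested. In somata and in processes 1 of the 26 rose with PTX and none fell, with a median log2 fold change of -0.03 in both, against -0.01 for all genes. Among all genes 2.09% rose and 1.5% fell in somata, and 1.64% rose and 2.1% fell in processes. The gene that rose in both was Ago2, the Argonaute protein that can cut its targets. It had 41.7 and 45.9 CPM in control somata, 72.7 and 71.6 in PTX somata, 51.1 and 55.9 in control processes, and 86.8 in both PTX process libraries. In each compartment both PTX libraries lay above both control libraries. The log2 fold change was 0.72 (SE 0.103, adjusted p = 0.00425) in somata and 0.70 (SE 0.107, adjusted p = 0.0067) in processes. Without the first control somata library the adjusted p in somata was 0.0536, at 0.65, and without the first control process library that in processes was 0.065, at 0.63.

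Drosha had mean levels of 42.5 CPM in control somata and 67.5 CPM in control processes, Dgcr8 22.9 and 19.2, Xpo5, which exports the hairpins, 52.2 and 38.2, and Dicer1 48.6 and 48.3. None of the 26 genes was called between the compartments of control cultures, against 19.2% of all genes. In PTX cultures 1 was, against 21% of all genes, namely the helicase gene Ddx17, a partner of Drosha. Ddx17 had 280 and 286 CPM in somata and 105 and 124 CPM in processes (log2 fold change -1.30, SE 0.115, adjusted p = 7.52e-06). In control cultures the same gene had a log2 fold change of -0.89 (SE 0.114, adjusted p = 0.000107), short of the fold required, though with upper quartile scaling it was -1.10 and passed.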

How the data were processed

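Ribosome-depleted total RNA of 8 libraries was analysed, with conditions and replicate numbers taken from the sample labels. The deposited values are raw counts per gene symbol, which the authors obtained with featureCounts. The submitters' notes name STAR and Rnor_6.0, whereas the methods name the aligner Subread, so the aligner is uncertain. The deposited comparison tables hold the authors' fold changes and p-values, which were not used. Only their biotype column was read.

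Genes entered the test if 2 or more libraries had over 20 of their reads. All 8 libraries were fitted with 1 coefficient per condition and TMM factors by edgeR 4.0.16 in R 4.3.3 (glmQLFit, glmQLFTest), with p-values adjusted over all 14309 genes by Benjamini-Hochberg. Calls needed an adjusted p under 0.05 and, between compartments, an absolute log2 fold change above 1. DESeq2 1.42.0 and other settings were alternatives. The fit was tested on simulated data. Libraries with the same number deviated together in every pair of conditions (r from 0.274 to 0.54 across genes), so the numbers pair the libraries. The main fit held no term for this pairing, which the replicate block adds as an alternative. A standard error is the absolute log2 fold change over the root of its F statistic. Genes named were those called in any comparison, at most 12 per direction, and the 5 with the highest mean CPM, along with host genes and other genes that contain them. Others named were chosen after their values were seen. The members and gene lists were chosen with earlier results of these data known.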

Additional observations from a re-analysis of the deposited data

Results flagged for a closer look

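In 2 miRNA genes every PTX library moved one way in somata and the other way in processes, relative to the control libraries. The share of all tested genes with such an order was not counted, so the number 2 is not read as a result. AC119336.1 had 5.25 and 6.05 CPM in PTX somata against 6.46 and 6.93 in control somata, but 25.5 and 28.6 CPM in PTX processes against 25.4 and 22.3 in control processes. The log2 effect of PTX in processes exceeded that in somata by 0.43. Mir3597-1 had 5.25 and 5.17 CPM in PTX somata against 4.46 and 4.66 in control somata, and 0.804 in both PTX process libraries against control processes at a mean of 1.09, where the process values rest on 7 to 10 reads. Here the difference was -0.62. The flag itself is untested, and the interaction in edgeR's quasi-likelihood fit had an adjusted p of 1 for both genes (unadjusted 0.0621 and 0.223).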

How the results depend on the processing

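The number of miRNA genes called for PTX in somata was 0, and 1 without a filter on low counts (AABR07070603.1, lower) or with the replicate block (Mir22, higher). With the block the calls among all genes in somata rose from 3.59% to 14%. For PTX in processes the number of miRNA genes called was 2, and 5 with the likelihood ratio test and 9 without a filter. It was 8 with the replicate block and 1 with only the 4 libraries compared. The calls among all genes moved in the same directions. They went from 3.74% to 6.63% with that test, 11.2% with the block and 2.08% with the 4 libraries, and also rose without a filter. The number of miRNA genes called ranged from 0 to 7 without single libraries. Between compartments of control cultures it was 25, and 14 of the 29 genes with at least 10 reads in every library, and 19 to 25 without single libraries. In PTX cultures it was 22, then 12, and 16 to 23. For the interaction it was 0, and 1 without a filter (AABR07015056.1), and 0 without each library. The replicate block otherwise added Mir344a-2 (control cultures) and AABR07063462.1 (PTX cultures) to the compartment calls and ended no call. With the block the compartment calls among all genes rose from 19.2% to 20.5% in control cultures and from 21% to 21.9% in PTX cultures. With library size scaling 9 of the 46 miRNA genes changed sign in control cultures and 17 in PTX cultures (43.9% and 44.1% of all genes). Among those called between the compartments these were -0.38 (AABR07018321.1) in control cultures and -0.47 (AABR07018321.1), -0.44 (AABR07015042.1), -0.45 (AABR07015056.1), -0.35 (AABR07015081.1), -0.49 (AABR07063425.1) and -0.38 (Mir568) in PTX cultures, as did Zbtb20 (-1.29 and -1.05) and Zranb2 in PTX cultures (-1.79). Zranb2 also changed sign in PTX cultures with upper quartile scaling (-0.15), at least 10 reads in every library (-0.04) and, without single libraries, ranged from -0.10 to 0.14, and in control cultures from -0.39 to 0.17. The causes were not tested. Of 1239 single fold changes recomputed, 1099 kept direction and call. With the counting depth of 1 to 12 reads per process library, the levels of the Mir-symbol genes lower in processes are imprecise.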
